A study of Mus musculus with 10 samples.

Results

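The ERBB receptors are cell-surface tyrosine kinases that read the epidermal growth factor (EGF) family of ligands, and the genes described here are 3 of these receptors with the enzymes that release their ligands and the proteins that restrain them. The 10 genes were taken by name: the receptors Egfr, Erbb2 and Erbb3, the membrane proteases Adam10 and Adam17, the inactive rhomboids Rhbdf1 and Rhbdf2, and the receptor inhibitors Errfi1, Lrig1 and Lrig3. All 10 were found among 48471 annotated genes, and all 10 passed the filter on low counts that left 15378 genes for testing. They were compared between CD90-negative and CD90-positive cells, sorted by flow cytometry for the surface protein CD90. The labels call both fractions myofibroblastic cancer-associated fibroblasts (myCAFs), the contractile, matrix-producing fibroblasts of a tumour.

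Both fractions came from mouse pancreatic ductal adenocarcinomas that grew after KPC T-LOH organoids were transplanted orthotopically, that is, into the pancreas, and the strain given for every sample is C57BL/6J. No treatment or animal age is given in the labels. Each fraction had 5 libraries from the same 5 tumour pools, which held 4, 1, 2, 3 and 1 animals by the numbers in the titles, 11 in all, although the design text counts 5 male mice; n is therefore given as pools. Unless the block for the pool is left out, the p values rest on how the difference between the fractions of a pool varied from pool to pool. In edgeR they also draw on the spread of other genes.

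EGF-family ligands are made as membrane-anchored precursors, and ADAM17 and ADAM10 cut them free. The iRhoms, encoded by Rhbdf1 and Rhbdf2, carry ADAM17 to the cell surface and have no protease activity of their own. Bound receptors pair with one another: EGFR binds ligands such as EGF and amphiregulin, ERBB3 binds neuregulins but has little kinase activity, and ERBB2 has no known ligand and serves as the partner of the others. ERRFI1 (also called MIG6) blocks the active kinase from inside the cell, and the LRIG proteins act on receptors at the membrane. In pancreatic cancer this pathway is best known from the carcinoma cells.

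Thy1, which encodes CD90, was lower in the CD90-negative fraction of every pool, at 2.09 to 16.0 against 39.2 to 116.6 CPM, the usual read count relative to library size, here with the library scaled by TMM (trimmed mean of M values). Libraries held between 11738491 and 47709168 estimated counts, and mitochondrial rRNA made up 35.6 to 84.4% of counts matched to genes in CD90-negative and 10.5 to 44.8% in CD90-positive libraries, higher in 5 of 5 pools. Counts on nuclear protein-coding genes were lowest in CD90-negative library 4 (3711407) and CD90-positive library 5 (4571332). Fibroblast markers were detected in both fractions, but the sum of 9 of them was 4052 to 20455 CPM in the CD90-negative and 32400 to 53864 CPM in the CD90-positive libraries, with 8 of 9 called lower. The 8 markers of the labelled myofibroblastic type, Acta2 and Tagln among them, were detected in both fractions, summed to 182 to 382 against 753 to 1494.6 CPM, and were all called lower. The sum of 13 cancer epithelial markers was 797 to 3353 against 191 to 1752 CPM and was higher in 5 of 5 pools, with 8 of 13 called higher, and the defining markers Epcam, Krt19 and Cdh1 were at 0 in no library. Endothelial markers summed to 30.7 to 248 against 26.8 to 37.5 CPM, with 2 of 6 called higher. The 248 CPM was in CD90-negative library 2, and the other CD90-negative libraries reached at most 58.4 CPM. Macrophage markers summed to 9.79 to 33.7 against 7.08 to 12.9 CPM, with 0 of 6 tested called in edgeR. Pericyte markers summed to 9.90 to 154 against 43.5 to 71.7 CPM, also with 0 of 5 called. The 154 CPM was again in CD90-negative library 2, and the other CD90-negative libraries reached at most 30.1 CPM. Acinar, T cell and Schwann cell markers reached at most 27.1, 7.05 and 36.7 CPM in any library, with 1 acinar gene called higher, and the Schwann marker Sox10 was at 0 in all 10 libraries. These highest sums were in CD90-negative library 4. The acinar and Schwann sums were higher in the CD90-negative fraction in 5 of 5 pools. Mesothelial markers summed to 154 to 266 against 185 to 298 CPM, with 1 of 5 called higher. What part these other cells and the mitochondrial share have in the differences below was not tested, and in bulk libraries fewer cells of a type and less RNA per cell cannot be told apart.

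Of the 10 genes, Erbb2 was called higher in CD90-negative cells and Egfr and Rhbdf1 lower, by edgeR's quasi-likelihood test with the pool as a block and a Benjamini-Hochberg adjusted p under 0.05 over all genes tested. Over all 15378 genes, 5.83% were called higher and 7.05% lower, beside 1 and 2 of 10 here. The median log2 fold (CD90-negative over CD90-positive) of the 10 was 0.20, against 0.04 for all genes. For 4 genes (Egfr, Erbb2, Lrig1 and Rhbdf1) the difference had the same sign in 5 of 5 pools, which 28.4% of all genes also showed. For none of the 10 did the CPM of the fractions separate fully, as was so for 7.93% of all genes (3.32% with all CD90-negative libraries higher and 4.62% with all lower). With the mitochondrial rRNA share added to the model, 0 of 10 and 0 of all genes passed in edgeR, 882 of all genes had an unadjusted p under 0.05, and the log2 folds of Erbb3 and Lrig1 changed sign (-0.19 and -0.17).

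**Figure D1:**
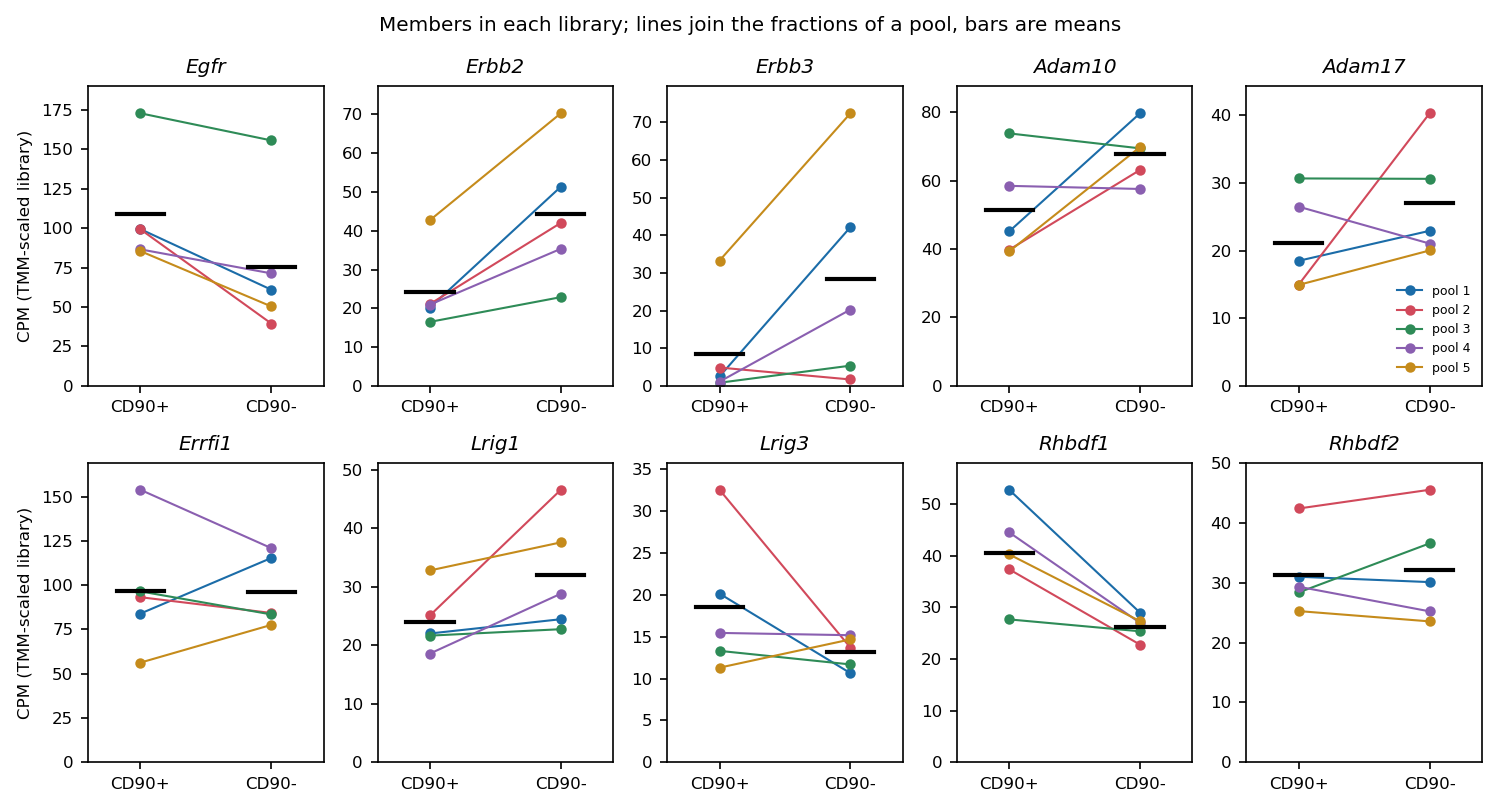
CPM (vertical axes, TMM-scaled library) of the 10 genes in CD90+ and CD90- libraries, with 1 point per library, a line joining the fractions of each of the 5 pools and a black bar at the mean. The lines of Erbb2 all rise and those of Egfr and Rhbdf1 all fall, while the fractions of every gene overlap.

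Erbb2 and Egfr moved in opposite directions. The annotated promoters of these genes are shown first, because both receptors were called, and those of Errfi1 follow because the shares of its coding transcripts from the alternative starts did not overlap between fractions. These are RefSeq windows (build GRCm38.p6, plus strand) of 250 bases that end at the base before the start site, at chr11:16751953-16752202 for Egfr and chr11:98412234-98412483 for Erbb2, and 7 of the 10 genes had such a window. Capitals mark every match, on either strand, to a TATA box (TATAAA), a cAMP response element (TGACGTCA), an AP-1 site (TGACTCA), the NF-Y word CCAAT or a GC box (GGGCGG).
Egfr: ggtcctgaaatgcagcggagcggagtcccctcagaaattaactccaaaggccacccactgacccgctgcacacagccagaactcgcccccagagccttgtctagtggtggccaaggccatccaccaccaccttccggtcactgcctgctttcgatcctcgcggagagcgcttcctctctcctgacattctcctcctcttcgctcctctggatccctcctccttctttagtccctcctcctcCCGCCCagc
Erbb2: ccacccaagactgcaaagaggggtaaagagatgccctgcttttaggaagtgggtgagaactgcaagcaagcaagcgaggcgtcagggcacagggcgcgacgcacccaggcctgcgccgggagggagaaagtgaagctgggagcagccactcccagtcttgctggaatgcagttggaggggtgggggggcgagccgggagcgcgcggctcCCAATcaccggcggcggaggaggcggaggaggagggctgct

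The Egfr window held 1 GC box and the Erbb2 window 1 CCAAT box, words that 32.7% and 33.8% of all 32851 windows of this length held. Neither window held the TATA, cAMP response or AP-1 word, which 12.4%, 1.55% and 4.46% of windows held. Such matches describe the letters and no binding was measured.

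Egfr, the receptor for EGF, amphiregulin and other ligands, was lower in CD90-negative cells. In pools 1 to 5 it was at 61.0, 39.6, 156, 71.3 and 50.4 CPM in the CD90-negative libraries and at 99.4, 99.3, 173, 86.6 and 85.5 CPM in the CD90-positive libraries. Pool 3 was the highest in both fractions, and every other CD90-negative library lay below every CD90-positive library. The means were 75.6 ± 46.3 and 109 ± 36.5 CPM (SD, n = 5), giving a log2 fold of -0.64 (SE 0.18, edgeR adjusted p = 0.0452), a fall of 1.56-fold. The within-pool differences in log2 CPM ranged from -1.33 in pool 2 to -0.15 in pool 3. The call lay close to the threshold: it was lost without the block for the pool (adjusted p = 0.424), without pool 1 (0.160), 2 (0.137), 4 (0.0586) or 5 (0.104), with both pools 4 and 5 left out (0.157), with relative log expression (RLE) size factors (0.0502) or upper-quartile normalization (0.0512) and with a transcript length offset (0.253), while the log2 fold stayed between -0.87 and -0.47.

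Erbb2, the receptor with no ligand of its own, was higher in the CD90-negative fraction of every pool. It was at 51.4, 42.0, 22.9, 35.4 and 70.3 CPM in CD90-negative libraries 1 to 5 and at 20.2, 21.1, 16.5, 21.0 and 42.7 CPM in the CD90-positive ones. Pool 5 was highest and pool 3 lowest in both fractions, and the groups overlap only through CD90-positive library 5. In that library Salmon placed 73.7% of the Erbb2 counts on a noncoding form, and the coding form was at 11.2 CPM, the lowest of its fraction, against 15.2 to 20.3 CPM in the other CD90-positive and 22.9 to 64.0 CPM in the CD90-negative libraries. The coding form alone, in an edgeR fit across transcripts added after the transcript shares were seen, had a log2 fold of 1.24 and did not pass (SE 0.34, adjusted p = 0.290). The means were 44.4 ± 17.8 and 24.3 ± 10.5 CPM (SD, n = 5), giving a log2 fold of 0.86 (SE 0.17, edgeR adjusted p = 0.0111), or 1.81-fold. Within pools the log2 difference ran from 0.47 in pool 3 to 1.34 in pool 1. The call was lost without pool 1 (log2 fold 0.73, adjusted p = 0.0656), without the block (0.125) and with both pools 4 and 5 left out (0.101).

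Erbb3, the neuregulin receptor, varied most. Its CPM were 42.2, 1.71, 5.39, 20.3 and 72.4 in CD90-negative libraries 1 to 5 and 2.52, 4.88, 0.844, 1.14 and 33.3 in the CD90-positive libraries, from 37 to 1961 counts a library. It was higher in the CD90-negative fraction of 4 pools and lower in pool 2. The log2 fold of 2.23 had an SE of 0.91 (95% interval 0.08 to 4.38) and did not pass after adjustment over all genes (edgeR adjusted p = 0.172). Without pool 2 it was 2.98 with an edgeR adjusted p of 0.0208. With all pools it was called by DESeq2 (adjusted p = 0.0339), by limma-voom (0.0348) and by edgeR on unfiltered genes (2.8e-11). The last fit had nearly the same log2 fold (2.22) but an SE of 0.31. These were the only 4 of 17 alternatives that called Erbb3. In edgeR it was not called without pool 1 (adjusted p = 0.396), 3 (0.403), 4 (0.323) or 5 (0.194). Nor was it called without the block (0.419) or with a transcript length offset (0.119). The epithelial surface marker Epcam was at 69.4, 8.52, 5.19, 44.5 and 140.5 CPM in the CD90-negative and at 0.839, 20.2, 0.633, 0.645 and 94.7 CPM in the CD90-positive libraries, so that it too was lower in the CD90-negative fraction in pool 2 alone. Epcam was singled out after its values were seen: 8 of the 13 epithelial markers, Krt19 and Cdh1 among them, were higher in 5 of 5 pools, and their sum in pool 2 was 1429 against 590 CPM. CD90-negative library 2 also had the highest endothelial and pericyte marker sums of all libraries, and their part was not tested. The fourth receptor, Erbb4, had 0 counts in every library.

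**Figure D2:**
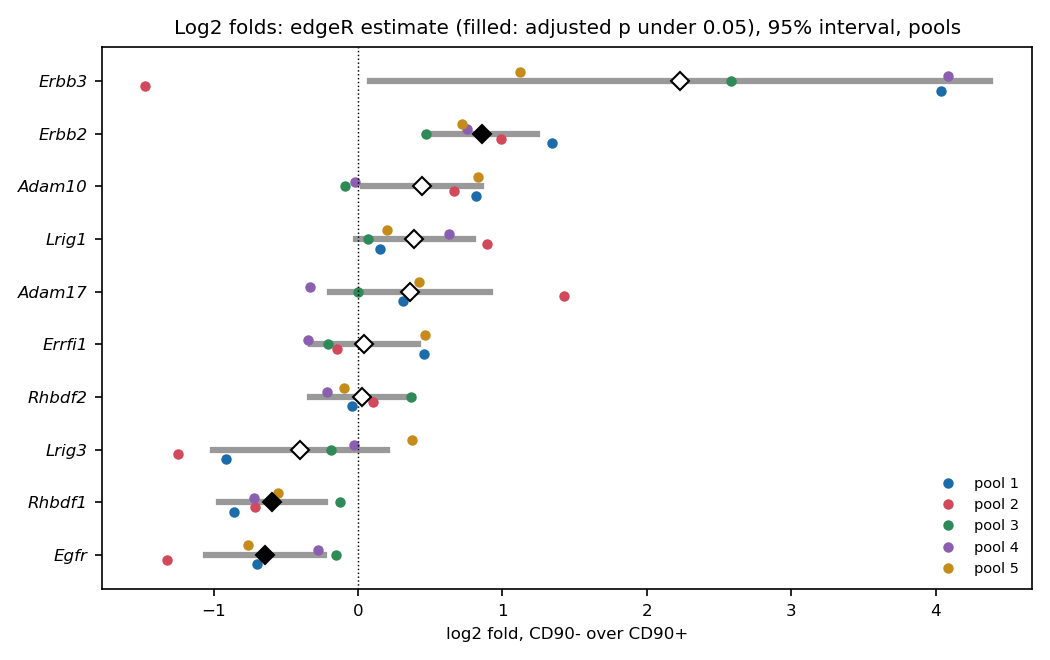
Log2 folds of the 10 genes (horizontal axis, CD90- over CD90+), with the edgeR estimate as a diamond (filled where the adjusted p is under 0.05), its 95% interval as a grey bar and the log2 CPM difference within each pool as a coloured point. Erbb2 lies wholly above 0 and Egfr and Rhbdf1 wholly below, and the points of Erbb3 run from -1.48 in pool 2 to 4.09 in pool 4.

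Within a library, the ratio of 2 genes depends on library scaling only through the prior count of 2 added before taking logs. Between fractions, 5 such ratios were compared. The log2 ratio of Erbb2 to Egfr averaged -0.69 ± 1.28 in CD90-negative and -2.19 ± 0.85 in CD90-positive libraries (SD, n = 5). It was higher in the CD90-negative fraction by 2.05, 2.32, 0.62, 1.03 and 1.48 in pools 1 to 5, a mean of 1.499 ± 0.70 (SD, n = 5; two-sided exact paired permutation p = 0.0625, adjusted p = 0.156 over the 5 ratios). With 5 pools 0.0625 is the smallest p this test can give. The ratio of Erbb3 to Erbb2 differed by 1.21 ± 2.33 and was higher in 4 of 5 pools (SD, n = 5; exact p = 0.25, adjusted p = 0.312). Without pool 2 the difference was 2.14, and without pool 4 it was 0.68.

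The summed cancer epithelial markers were, in pools 1 to 5, 2765, 1429, 797, 2516 and 3353 CPM in the CD90-negative and 408, 590, 191, 560 and 1752 CPM in the CD90-positive libraries. CD90-positive library 5, whose Erbb2 and Erbb3 stood above those of the other CD90-positive libraries, also had the highest sum of its fraction, although its coding Erbb2 was the lowest, as given above. CD90-negative library 3 had the lowest sum of its fraction, with the lowest Erbb2 and the highest Egfr of its fraction. The genes whose log2 CPM followed each receptor most closely over the 10 libraries, among 6850 or more protein-coding genes averaging 3 or above in log2 CPM, differed between receptors. For Erbb3 they were Myh14 (a nonmuscle myosin; Pearson r = 0.97), Gsta4 (a glutathione transferase; 0.96), Krt19 (a ductal keratin; 0.95), Dmbt1 (a mucosal scavenger glycoprotein; 0.95) and Lgals4 (an epithelial galectin; 0.93). For Erbb2 they were Ints1 (a subunit of Integrator; 0.99), Pkp4 (a junctional plakophilin; 0.98), Epha2 (an ephrin receptor; 0.98), Cmtm4 (0.97) and AI661453 (0.97). For Egfr they were Ssr1 (a subunit of the translocon-associated complex; 0.98), Bicd1 (a dynein adaptor; 0.98), Hdc (histidine decarboxylase; 0.97), Ptgs1 (cyclooxygenase 1; 0.97) and Gstp1 (a glutathione transferase; 0.97). Krt19 and Lgals4 are themselves in the epithelial marker list. These correlations describe 10 libraries that share pools and differ in depth and in the sort, and no test is attached to them.

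**Figure D3:**
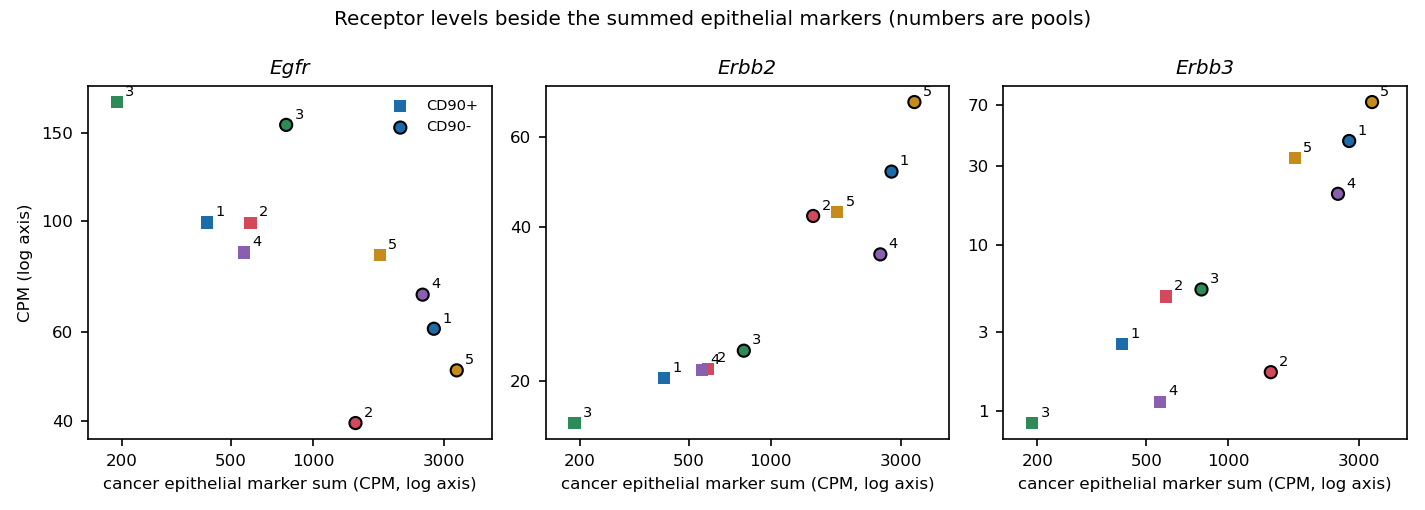
CPM of Egfr, Erbb2 and Erbb3 (vertical log axes) beside the summed CPM of 13 cancer epithelial markers (horizontal log axis), with 1 point per library, squares for CD90+, outlined circles for CD90- and pool numbers beside them. Erbb2, all forms summed, is lowest at the lowest sum (16.5 CPM at 191) and highest at the highest (70.3 CPM at 3353), and Egfr is highest at the lowest sum (173 CPM).

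Adam10 and Adam17, the proteases that shed EGF-family ligands, were detected in every library and neither was called. Adam10 was at 79.7, 63.1, 69.4, 57.6 and 69.8 CPM in CD90-negative libraries 1 to 5 and at 45.1, 39.8, 73.8, 58.5 and 39.3 CPM in the CD90-positive ones. It was higher in pools 1, 2 and 5 and about level in pools 3 and 4, with a log2 fold of 0.44 (SE 0.18, 95% interval 0.03 to 0.85, edgeR adjusted p = 0.156). Adam17, the main sheddase of amphiregulin and transforming growth factor alpha, was at 22.9, 40.3, 30.6, 21.0 and 20.02 against 18.5, 14.99, 30.7, 26.5 and 14.9 CPM. CD90-negative library 2 stood highest and the groups overlap widely, with a log2 fold of 0.36 (SE 0.25, 95% interval -0.20 to 0.92, edgeR adjusted p = 0.410). Without pool 2 the log2 fold was 0.10, and with a transcript length offset 0.20. The log2 ratio of Adam17 to Adam10 differed between fractions by -0.08 ± 0.52 (SD, n = 5; exact paired permutation p = 0.812, adjusted p = 0.812), higher in 2 of 5 pools. These totals and the ratio sum all forms of each gene. Of the Adam10 counts, Salmon placed means of 45.7% (CD90-negative) and 48.7% (CD90-positive) on a form annotated for nonsense-mediated decay, not as coding. The main coding form of Adam17 held 69.7 to 78.7% in CD90-negative and 0 to 85.1% in CD90-positive libraries. It held 0% in CD90-positive library 1 and 23.0% in library 5.

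Rhbdf1, which encodes iRhom1, was lower in the CD90-negative fraction of every pool. Its levels were 29.0, 22.8, 25.4, 27.0 and 27.3 CPM in CD90-negative libraries 1 to 5 and 52.8, 37.4, 27.7, 44.5 and 40.3 CPM in the CD90-positive libraries. The CD90-negative libraries lay within a narrow range, and the fractions overlap only through library 3 of the CD90-positive and library 1 of the CD90-negative fraction. The means were 26.3 ± 2.34 and 40.5 ± 9.23 CPM (SD, n = 5), giving a log2 fold of -0.60 (SE 0.16, edgeR adjusted p = 0.0410), a fall of 1.51-fold. This call too lay near the threshold and was lost without pool 1 (adjusted p = 0.183), 2 (0.111), 4 (0.105) or 5 (0.0656), without the block (0.0684), with pools 4 and 5 left out (0.190), with upper-quartile normalization (0.0529) and with a transcript length offset (0.150).

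Rhbdf2, which encodes iRhom2, showed no such fall. It was at 30.1, 45.5, 36.5, 25.2 and 23.5 against 31.0, 42.4, 28.4, 29.3 and 25.2 CPM in pools 1 to 5. The log2 fold was 0.02 (SE 0.16, 95% interval -0.33 to 0.38, edgeR adjusted p = 0.947). The difference between the iRhom genes was itself measured: the log2 ratio of Rhbdf2 to Rhbdf1 was 0.25 ± 0.50 in CD90-negative and -0.37 ± 0.44 in CD90-positive libraries (SD, n = 5). It was higher in the CD90-negative fraction by 0.82, 0.81, 0.49, 0.50 and 0.46 in pools 1 to 5 (mean 0.62 ± 0.18, SD, n = 5; exact paired permutation p = 0.0625, the smallest possible, adjusted p = 0.156). The totals of both iRhom genes and their ratio sum all forms. A noncoding Rhbdf2 form that retains an intron held means of 38.2% (CD90-negative) and 45.9% (CD90-positive) of its counts. That share was lower in the CD90-negative fraction of every pool. A form of Rhbdf1 of the same kind held means of 29.2% and 24.1%.

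Errfi1, the intracellular inhibitor of the EGFR kinase, did not differ in total. It was at 115, 84.3, 83.5, 120.9 and 77.6 CPM in CD90-negative libraries 1 to 5 and at 83.9, 93.2, 96.5, 154 and 56.3 CPM in the CD90-positive libraries. It was higher in pools 1 and 5 and lower in pools 2, 3 and 4, with a log2 fold of 0.04 (SE 0.17, 95% interval -0.33 to 0.41, edgeR adjusted p = 0.903).

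The counts of Errfi1 were divided differently between its transcripts. The annotation holds 2 coding forms that share 2 internal exons and differ in their first: the first exon of the downstream-start form has 199 bases, and that of the upstream-start form has 187 bases and begins 1154 bases before it (GENCODE M21, GRCm38). RefSeq lists a start near each, with windows at chr4:150853546-150853795 (upstream) and chr4:150854820-150855069 (downstream). The first exons of the counted forms begin at 150853919 (upstream) and 150855073 (downstream). The bases between the upstream window and the first exon of that form were therefore not searched. Both windows are shown with the same motifs in capitals.
Errfi1 upstream start: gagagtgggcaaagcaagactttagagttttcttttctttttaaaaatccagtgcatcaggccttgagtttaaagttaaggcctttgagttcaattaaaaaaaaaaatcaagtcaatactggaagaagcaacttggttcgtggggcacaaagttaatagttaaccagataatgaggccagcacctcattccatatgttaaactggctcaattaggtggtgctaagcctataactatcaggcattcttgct
Errfi1 downstream start: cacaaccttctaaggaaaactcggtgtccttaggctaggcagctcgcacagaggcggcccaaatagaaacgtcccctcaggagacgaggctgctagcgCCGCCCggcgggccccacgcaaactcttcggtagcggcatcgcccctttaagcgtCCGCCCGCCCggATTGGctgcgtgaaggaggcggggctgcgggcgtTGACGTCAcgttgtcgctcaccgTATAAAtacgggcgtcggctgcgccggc

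The upstream window had a GC content of 38.0% and held none of the 5 words, whereas the downstream window had 64.8% and held 1 TATA box, 1 cAMP response element, 1 CCAAT box and 3 GC boxes. The median GC content of all windows was 52.4%. The upstream-start form took 5.07, 7.08, 6.43, 2.70 and 5.09% of the estimated counts of the gene in CD90-negative libraries 1 to 5. In the CD90-positive libraries the shares were 0, 0.136, 0.183, 0.964 and 0%, where 0 counts allow shares of up to 0.166% in pool 1 and 0.524% in pool 5, counting error only. Every CD90-negative library lay above every CD90-positive one, and the means were 5.27% ± 1.68 and 0.257% ± 0.404 (SD, n = 5). The coding downstream-start form held 95.2 to 100% in CD90-positive and 86.1 to 91.2% in CD90-negative libraries, also with no overlap. Another, noncoding transcript begins at the same downstream start and held 0 to 4.15% in CD90-positive and 1.77 to 11.2% in CD90-negative libraries (means 2.87% ± 1.69 and 5.10% ± 3.78, SD, n = 5), with overlap. Of 29 transcripts of the 10 genes that could be compared this way, these were the only ones whose shares separated fully, as 0.905% of 31709 transcripts did (0.438% with the CD90-negative libraries higher). As shares of the same gene they are not independent, since a rise of either leaves less for the other. Both were singled out after their values were seen.

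The upstream-start form is a minor one, with 30.6 to 271 estimated counts in CD90-negative and 0 to 48.3 in CD90-positive libraries. In an edgeR fit across 35891 transcripts, added after these shares were seen, it averaged 4.95 ± 1.32 against 0.371 ± 0.654 CPM (SD, n = 5) and was higher in 5 of 5 pools, but it did not pass (unadjusted p = 0.0147, adjusted p = 0.370). That fit called 19 transcripts in all (0.0529%; 0.0111% higher and 0.0418% lower) and 0 of the 30 tested transcripts of these 10 genes. The division of reads between forms is an estimate of Salmon whose uncertainty is not in the files used.

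**Figure D4:**
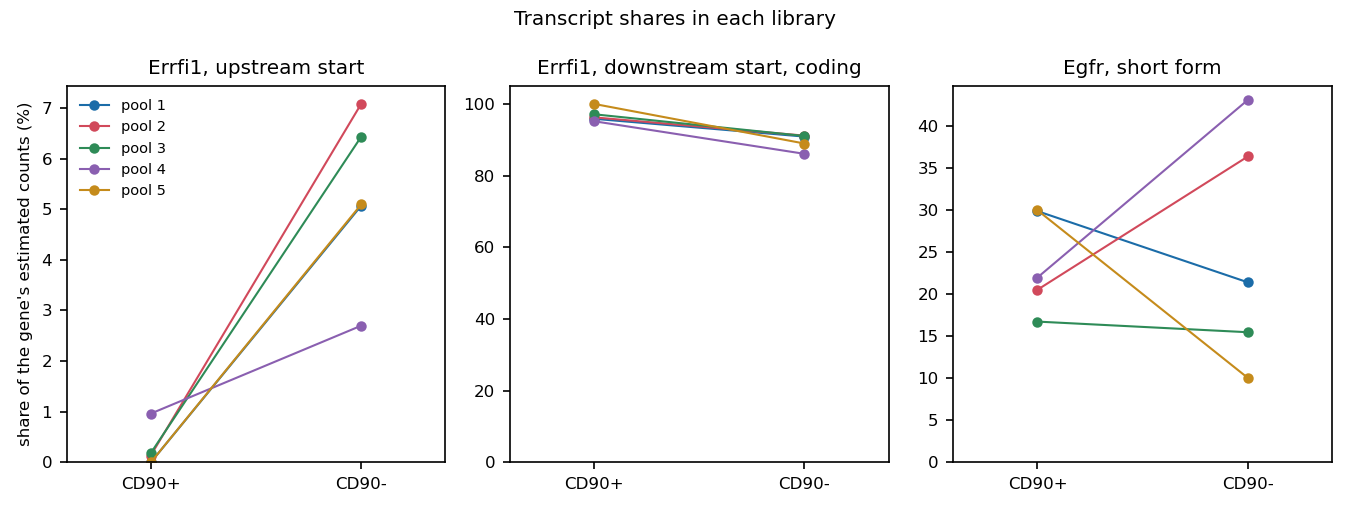
Share of the estimated counts of the gene (vertical axes, %) on the upstream-start and downstream-start coding forms of Errfi1 and the short form of Egfr in CD90+ and CD90- libraries, with 1 point per library and a line per pool. The upstream-start form lies between 2.70 and 7.08% in all CD90- libraries and between 0 and 0.964% in all CD90+ libraries, while the lines of the short Egfr form run in both directions.

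Egfr itself has a long form with 28 exons and a short one with 16, of which 14 are identical. The short form is known to encode a soluble receptor without the kinase. It took 21.4, 36.4, 15.5, 43.1 and 10.1% of Egfr counts in CD90-negative libraries 1 to 5 and 29.9, 20.5, 16.8, 22.0 and 30.01% in the CD90-positive libraries, higher in 2 of 5 pools, and the fractions overlap. The coding form of Erbb2 held 91.0 to 100% of counts in the CD90-negative libraries and 91.8 to 100% in CD90-positive libraries 1 to 4. In CD90-positive library 5, the one with the lowest total count, it held 26.3%, and a noncoding form held 73.7%.

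The membrane inhibitors Lrig1 and Lrig3 were not called. LRIG1 promotes the breakdown of ERBB receptors, and its gene was at 24.5, 46.6, 22.8, 28.8 and 37.6 CPM in CD90-negative libraries 1 to 5 and at 22.0, 25.1, 21.7, 18.6 and 32.8 CPM in the CD90-positive ones. It was higher in all 5 pools, by as little as 0.07 in pool 3 on the log2 scale, with a log2 fold of 0.39 (SE 0.18, 95% interval -0.02 to 0.79, edgeR adjusted p = 0.208; 0.18 with a transcript length offset). Lrig3, a relative with less settled effects on these receptors, was at 10.6, 13.7, 11.7, 15.2 and 14.7 against 20.1, 32.5, 13.3, 15.4 and 11.3 CPM, with a log2 fold of -0.40 (SE 0.27, 95% interval -1.01 to 0.20, edgeR adjusted p = 0.390). CD90-positive library 2 stood above all others, and the log2 fold was -0.19 without pool 2, -0.62 without pool 5 and -0.83 with pools 4 and 5 left out. The log2 ratio of Lrig3 to Lrig1 was lower in the CD90-negative fraction of 4 of 5 pools, by a mean difference of -0.79 ± 0.88 (SD, n = 5; exact paired permutation p = 0.125, adjusted p = 0.208), which was -0.45 without pool 2 and -0.43 per effective length. The Lrig totals and their ratio also sum all forms. A Lrig1 form annotated for nonsense-mediated decay held 0 to 69.1% of its counts in CD90-negative and 0 to 88.6% in CD90-positive libraries. Means were 29.7% and 52.7%. The coding form of Lrig3 held 31.3 to 86.4% and 52.2 to 85.1%.

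Levels of different genes can be compared only per length, so counts were divided by the effective transcript length (CPM per kilobase). Errfi1 had the highest median in both fractions, at 42.7 CPM per kilobase in CD90-negative and 41.8 in CD90-positive libraries. Adam10 (24.4), Egfr (14.0), Rhbdf2 (11.7), Rhbdf1 (11.4), Adam17 (9.29), Erbb2 (8.48), Lrig1 (7.13), Lrig3 (6.71) and Erbb3 (4.09) followed in CD90-negative libraries. In the CD90-positive libraries the order was Egfr (26.2), Adam10 (19.97), Rhbdf1 (19.8), Rhbdf2 (11.0), Adam17 (8.21), Lrig1 (7.67), Lrig3 (6.96), Erbb2 (4.06) and Erbb3 (0.447). Neighbours in either order overlapped in range, except Errfi1 (36.6 to 85.5) and Adam10 (21.0 to 29.0) in CD90-negative libraries. In those libraries, for example, Erbb2 spanned 4.63 to 19.9 and Lrig1 6.44 to 15.2. Egfr per kilobase reached 63.6 in CD90-positive library 5, where the 446-base noncoding transcript of the gene took 12.8% of its counts. Short noncoding transcripts weighed in other libraries too. Per length, the 716- and 446-base forms of Egfr held means of 15.8% and 20.3% in CD90-negative and 5.41% and 27.4% in CD90-positive libraries. The 546-base noncoding form of Errfi1 held 23.5% and 14.1%. These orders are therefore not orders of the coding forms alone.

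Around these genes, 4 lists of the pathway were counted. Of 11 EGF-family ligands, 8 were tested, 3 were higher (Areg, Btc and Hbegf) and 1 was lower (Nrg1), with a median log2 fold of 1.03, beside 5.83% of all genes called higher, 7.05% called lower and a median of 0.04. The lists below are read against the same shares. Areg and Hbegf had log2 folds of 2.81 and 1.31, and Btc, betacellulin, of 2.95 (edgeR adjusted p from 0.0038 to 0.0085). Nrg1, a ligand of ERBB3, averaged 0.276 ± 0.375 against 4.46 ± 1.15 CPM (SD, n = 5; edgeR adjusted p = 0.0169). The call of Nrg1 was lost without pool 4 (adjusted p = 0.0563), and those of Areg and Hbegf without the block (0.112 and 0.0931). With pools 4 and 5 left out, Nrg1 (0.125) and Btc (0.0630) were not called. With the mitochondrial rRNA share in the model, where no gene was called, the log2 fold of Areg was 0.32. Those of Btc, Hbegf and Nrg1 were 2.12, 1.59 and -2.99.

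Among 16 adaptors and effectors that act next to the receptors, 1 was higher, 1 was lower and the median log2 fold was -0.06. Grb7, an adaptor of ERBB2 whose gene neighbours Erbb2, was at 12.9 ± 7.93 against 2.80 ± 2.84 CPM (SD, n = 5), giving a log2 fold of 2.75 (SE 0.54, edgeR adjusted p = 0.0111). Plcg1, a phospholipase recruited by EGFR, fell by 0.57 on the log2 scale (SE 0.16, edgeR adjusted p = 0.0394). Without pool 1 neither was called (adjusted p of 0.0611 and 0.178), nor without the block (0.134 and 0.0673), nor with pools 4 and 5 left out (0.0884 and 0.188). Plcg1 also lost its call without any of pools 2, 4 and 5 (adjusted p of 0.0793, 0.0715 and 0.0866). With the mitochondrial rRNA share in the model, the log2 folds of Grb7 and Plcg1 were 1.04 and -0.78. The other 14 did not pass.

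Of 19 genes of receptor turnover and restraint, 0 were higher and 1 was lower, with a median log2 fold of 0.07. The gene was Sh3kbp1, which encodes the CBL partner CIN85 that takes part in receptor uptake. It was at 35.0 ± 9.37 against 71.7 ± 13.6 CPM (SD, n = 5), with no overlap between fractions and a log2 fold of -1.06 (SE 0.19, edgeR adjusted p = 0.00659), and lost its call with pools 4 and 5 left out (0.0651).

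Of 19 partners and relatives of the sheddases, 17 were tested, 1 was higher and 4 were lower, with a median log2 fold of 0.07. Tspan15, a tetraspanin that guides ADAM10, was at 28.6 ± 12.1 against 5.95 ± 6.00 CPM (SD, n = 5) and rose by a log2 fold of 2.77 (SE 0.53, edgeR adjusted p = 0.0135). Timp3, the tissue inhibitor that blocks ADAM17, fell from 836 ± 239.9 to 295 ± 245 CPM (SD, n = 5; log2 fold -1.84, SE 0.33, edgeR adjusted p = 0.00895). Timp1, which inhibits ADAM10, fell by 2.36 on the log2 scale (SE 0.53, edgeR adjusted p = 0.0283).

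The remaining 2 that fell were metalloproteases linked to ligand release. Adam19 was at 20.3 ± 10.1 against 121 ± 30.7 CPM with no overlap (SD, n = 5; log2 fold -2.71, SE 0.32, edgeR adjusted p = 0.00279), and Adam12 fell by 1.21 on the log2 scale (SE 0.27, edgeR adjusted p = 0.0213). Without the block, Tspan15 (0.0723), Timp3 (0.0997), Timp1 (0.339; log2 fold -1.39) and Adam12 (0.128) were not called, which left 0 genes higher and 1 lower in this list. With pools 4 and 5 left out, Timp3 (0.0816), Timp1 (0.125) and Adam12 (0.0989) lost their calls. Without pool 1 the calls of Tspan15 (0.0661), Timp1 (0.0994) and Adam12 (0.0953) were lost, and Timp1 also lost its call without pool 2 (0.0689) or 4 (0.0520). Fibroblast markers were lower and epithelial markers higher in these same libraries, as given above.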

How the data were processed

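RNA was sequenced from 10 sorted fractions, using a low-input stranded kit on 0.1 to 1.2 ng of RNA with integrity numbers of 3.1 to 8.7, per the labels' protocols. Low-input samples had 10 and others 5 cDNA cycles; which sample had which is not given in the sources used. For each transcript the deposited files give an estimated count, a TPM value and an effective length. The submitters' processing notes name Salmon 1.9.0 and GRCm39 (mm39); which annotation and strand setting were used is not given in the sources used. Deposited TPM values entered no test.

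Transcripts were matched without version to GENCODE M21 (133666 of 144584, 92.4%); the rest held 3.63 to 12.1% of a library. Estimated counts were summed per gene, rounded, filtered (filterByExpr), TMM-scaled and tested with edgeR 4.0.16 in R 4.3.3 (glmQLFit with robust estimation, glmQLFTest), with the pool as a block and a threshold of 0.05. Ratios used log2 CPM with a prior count of 2. The pairing comes from animal numbers shared by the titles; the deviations of paired libraries correlated by 0.06, 0.00, 0.46, 0.03 and 0.19 in pools 1 to 5. No 2 libraries of a group agreed within counting noise. PCR reads carry no molecular identifiers, so limits cover counting error only. The procedure was tested on counts simulated with the dispersions fitted to these data, and no result here rests on that test. The simulated fractions did not differ in cell mixture or mitochondrial share, so that test does not cover such differences. Named were the 10 genes, Thy1, up to 4 called genes per direction of each list and the 5 genes most like each receptor; others are marked or were named after their values were seen. The genes and lists were chosen with earlier results of these data known. Alternatives included DESeq2 1.42.0 and limma-voom (limma 3.58.1).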

Additional observations from a re-analysis of the deposited data

Results flagged for a closer look

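In each fraction of 5 libraries, the log2 CPM of each of the 10 genes was checked for a library far from the other 4 by Dixon's criterion at the 95% level, under which about 1 in 20 groups is marked by chance. Of 20 groups, 2 held such a library. Egfr in CD90-positive library 3 was at a log2 CPM of 7.43, against 6.42 to 6.64 in the others, and the CD90-negative library of the same pool was also the highest of its fraction. Erbb2 in CD90-positive library 5 was at a log2 CPM of 5.42, against 4.05 to 4.404 in the others, in the library with the lowest total count and the highest epithelial marker sum of its fraction. There 73.7% of the Erbb2 counts lay on a noncoding form, and the coding form, at 11.2 CPM, was the lowest of its fraction.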

How the results depend on the processing

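Erbb2 kept its direction in all 17 alternatives and lost its call in 4, Egfr kept its direction and lost its call in 10, and Rhbdf1 kept its direction and lost its call in 9. The pool serves as the replicate block. Without the replicate block, 421 genes were called higher and 544 lower, with 0 of the 10 genes in either direction. DESeq2 called 1623 and 1809 genes, with 2 of the 10 higher. With mitochondrial rRNA added to the model, edgeR called 0 and 0 genes. With pools 4 and 5 left out, 357 and 184 genes were called, and at a threshold of 0.01, 308 and 396, each with 0 of the 10 in either direction. Leaving out 1 pool in turn gave 308 to 820 genes higher and 367 to 1199 lower, with 0 to 2 of the 10 higher and 0 to 2 lower. Both limma-voom and edgeR on unfiltered genes gave 2 of the 10 higher. RLE size factors gave 1 of the 10 lower, and upper-quartile normalization and the length offset 0. The cause was not tested.

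Values near 0 changed sign. Errfi1 was at -0.0078 without the replicate block, at -0.0064 with pools 4 and 5 left out, and from -0.088 to 0.108 on leaving out 1 pool. Rhbdf2 was at -0.0031 with unmatched transcripts kept and from -0.065 to 0.050 on leaving out 1 pool. On leaving out 1 pool, the Adam17 to Adam10 log2 ratio difference ran from -0.285 to 0.032 and the coding downstream-start form of Errfi1 from -0.242 to 0.0050. With the mitochondrial covariate Erbb3 was at -0.19 and Lrig1 at -0.17. The transcript fit was chosen after seeing the data. Erbb3 rested on as few as 37 counts in a library.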
